A study of Mus musculus with 8 samples.

Results

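Prdm6, Prdm8, Prdm12, Prdm13, Prdm14 and Prdm16, all of the Prdm family, were followed through 4 within-line comparisons of DNA methylation in mouse colon organoids. They are 6 of 21887 protein-coding genes in the RefSeq annotation of GRCm38.p6, the build of the files. The other 9 Prdm genes served as a comparison. The 6 genes were chosen by the methylation differences that these same tables list for them, so the amount and direction of change given here is a description and supports no claim about the family. For each gene, every listed 200 bp tile that overlapped the RefSeq gene span with 2 kb on either side was taken, which gave 129 distinct tiles over the 6 genes.

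Methylation was read by reduced representation bisulfite sequencing, which samples CpG-rich fragments of the genome, in organoids grown from the first 2.5 cm of the proximal colon of male mice about 40 days old. All 8 libraries come from organoids with a heterozygous Cre-activable BrafV600E allele, whose product is a BRAF kinase that signals without a stimulus, and fall into 4 groups of 2, with organoid lines 1 and 3 in each. One group, BrafV600E in Base medium, received lentiviral Cre, was cultured for 5 months and was selected for growth in Base medium, which lacks the niche factors of stem cells. Its control received the empty lentiviral vector (EV) and stayed in full medium for 5 months. Another pair of groups, all EV in full medium, sets an age of 12 months in culture for line 1 and 14 months for line 3, here called long culture, against 2 months. All are labelled with a further 3 weeks of growth. The oncogene and the medium changed together, so their parts cannot be told apart. The line 3 library titled as 14 months is tagged 2 months elsewhere in its labels, and the line 1 BrafV600E library has line 3 in its source name. Titles were followed. Each line is given on its own, so line 3 with BrafV600E and line 1 after long culture show the values without these libraries.

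The deposited tables hold gains and losses apart, and the pair for each comparison was joined and is treated as 1 table here. Each sets 1 library against 1 library of the same line and lists tiles that differ by at least 20 percentage points with a q-value of at most 0.01. The values are differences, not levels. Tiles that are not listed either missed one of these limits or were not read, and read depth is unknown, so no interval can be given for a tile. Where the control is nearly unmethylated a loss cannot be listed, and where it is nearly full a gain cannot. The authors' q-values compare the 2 libraries and not the conditions, which leaves the lines as the only replicates. A change in methylation within cells and a change in the mix of cells cannot be told apart in bulk DNA. No expression was measured in these files, so the labelled cell type could not be checked against its markers' expression.

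Prdm proteins are nuclear regulators that join a PR domain, related to the SET domain of histone methyltransferases, to an array of zinc fingers. Some members methylate histones themselves, and others recruit repressive enzymes. Many Prdm genes act in 1 or a few lineages during development. In other tissues they stay silent, often with CpG-rich, unmethylated starts. Prdm16 directs brown fat and muscle fate, sustains blood and neural stem cells, and supports fatty acid use in crypt progenitors of the small intestine. Prdm12 specifies pain-sensing neurons, Prdm13 acts with Ptf1a in inhibitory neurons of the spinal cord and retina, and Prdm8 is a partner of Bhlhe22 in neural repression. Prdm14 guards pluripotency and the germ cell lineage, where it represses genes of the DNA methylation machinery, and Prdm6 acts in smooth muscle.

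The RefSeq promoter windows, from 250 bases before to 50 after the annotated start, are shown for the 3 genes that had a listed tile in that window, because the changes at Prdm16, Prdm12 and Prdm13 are measured on the CpG sites in and around them. Each is written 5′ to 3′ in the direction of transcription, from GRCm38.p6, with every CpG (the letters CG, on both strands) in capitals. Prdm16 lies on the minus strand at chr4:154636824-154637123, Prdm12 on the plus strand at chr2:31639787-31640086, and Prdm13 on the minus strand at chr4:21685914-21686213.
Prdm16: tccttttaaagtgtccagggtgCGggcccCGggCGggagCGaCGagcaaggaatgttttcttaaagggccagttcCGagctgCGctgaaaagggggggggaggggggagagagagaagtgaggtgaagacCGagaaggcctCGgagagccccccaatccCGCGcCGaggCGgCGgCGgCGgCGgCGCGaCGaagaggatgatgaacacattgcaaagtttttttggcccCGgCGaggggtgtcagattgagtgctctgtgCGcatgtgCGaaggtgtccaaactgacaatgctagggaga
Prdm12: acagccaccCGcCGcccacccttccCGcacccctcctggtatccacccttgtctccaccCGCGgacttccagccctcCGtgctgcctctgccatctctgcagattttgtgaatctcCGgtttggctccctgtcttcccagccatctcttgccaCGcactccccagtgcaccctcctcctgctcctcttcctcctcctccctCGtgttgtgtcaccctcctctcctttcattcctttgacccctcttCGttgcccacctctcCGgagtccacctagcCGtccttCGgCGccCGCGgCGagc
Prdm13: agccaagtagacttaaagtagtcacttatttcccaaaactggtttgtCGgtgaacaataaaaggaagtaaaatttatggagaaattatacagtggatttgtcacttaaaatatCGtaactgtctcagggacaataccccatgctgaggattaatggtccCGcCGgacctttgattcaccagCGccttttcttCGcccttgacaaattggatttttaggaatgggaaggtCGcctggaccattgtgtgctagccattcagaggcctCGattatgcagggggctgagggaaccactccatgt

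The Prdm16 window holds 24 CpG, the Prdm12 window 17 and the Prdm13 window 8, against a median of 7 over 32851 RefSeq promoter windows of the same 300 bases. At least as many as in Prdm16 are found in 20.0% of those windows. A CpG of any kind occurs in 94.6% of windows. The letters CCGG, which contain a CpG and are the site of MspI, the enzyme commonly used for this assay, occur 2 times in the Prdm16 and Prdm12 windows and 1 time in the Prdm13 window, and at least 1 time in 52.8% of all windows. The Prdm8 window had 12 CpG and no listed tile. Of the 6 genes, 4 had an entry in the promoter table, so Prdm6 and Prdm14 are described by the ends of their gene spans.

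All 6 genes carried listed tiles in all 4 comparisons, and 5 or 6 of them had at least 1 gained tile in each. With BrafV600E, 6 of 6 genes had a gained tile in line 1, where 17.8% of protein-coding genes had one, and 6 of 6 in line 3, where 20.9% had one. After long culture, 5 of 6 genes had a gained tile in line 1 (8.55% of genes) and 6 of 6 in line 3 (20.3% of genes). A gained tile in both lines was listed at 6 of 6 genes with BrafV600E (11.3% of genes) and at 5 of 6 after long culture (6.5% of genes). These shares chose the genes, so nothing is read from them. Gene length also differed, from 10.1 kb for Prdm13 to 321 kb for Prdm16, against a median of 17.2 kb over protein-coding genes. Prdm12 had 9.69 distinct listed tiles per 10 kb and Prdm13 7.80, whereas Prdm16, with 62 tiles in all, had 1.91 per 10 kb. The median over the 9828 genes with a listed tile was 0.656 per 10 kb, and 4 genes, Prdm16 among them, had 62 tiles or more.

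Counted tile by tile, gains outnumbered losses at the 6 genes, except with BrafV600E in line 3, where they were nearly even. In line 1 with BrafV600E, 33 of 40 listed tiles (82.5%, exact 95% interval 67.2 to 92.7) had gained, against 67.5% of all listed tiles in that table. In line 3 it was 31 of 61 (50.8%, 37.7 to 63.9), against 40.4%. Prdm16 held 26 of the 30 lost tiles in line 3; in the other 5 genes 19 of 23 tiles (82.6%) had gained. After long culture 17 of 25 tiles (68%, 46.5 to 85.1) had gained in line 1, against 40.9% of all listed tiles, and 62 of 68 (91.2%, 81.8 to 96.7) in line 3, against 71.9%. Counted this way, the share of gains was above that of the whole table in 4 of 4 tables. Runs of adjoining tiles weigh heavily in it. With tiles within 500 bp merged into 1 region, 7 of 15 regions (46.7%) had gained after long culture in line 1, no longer a majority, and 16 of 41 (39.0%) with BrafV600E in line 3. Over all tiles merged alike these shares were 35.6% and 35.9%. Neighbouring tiles can share CpG-rich stretches and are not replicates, so these Clopper-Pearson intervals cover counting error only and no test was made on these shares.

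**Figure D1:**
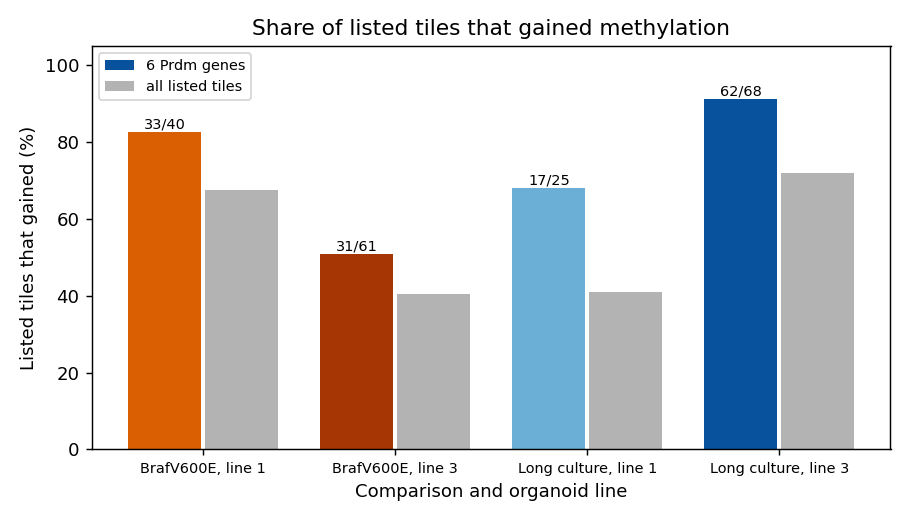
Share of listed 200 bp tiles that gained methylation (percent, y axis) in each comparison and line. Coloured bars are the 6 Prdm genes with gained over listed tiles written above, and grey bars are all listed tiles of the same table; the Prdm bar is the higher of the pair in 4 of 4 tables.

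**Figure D2:**
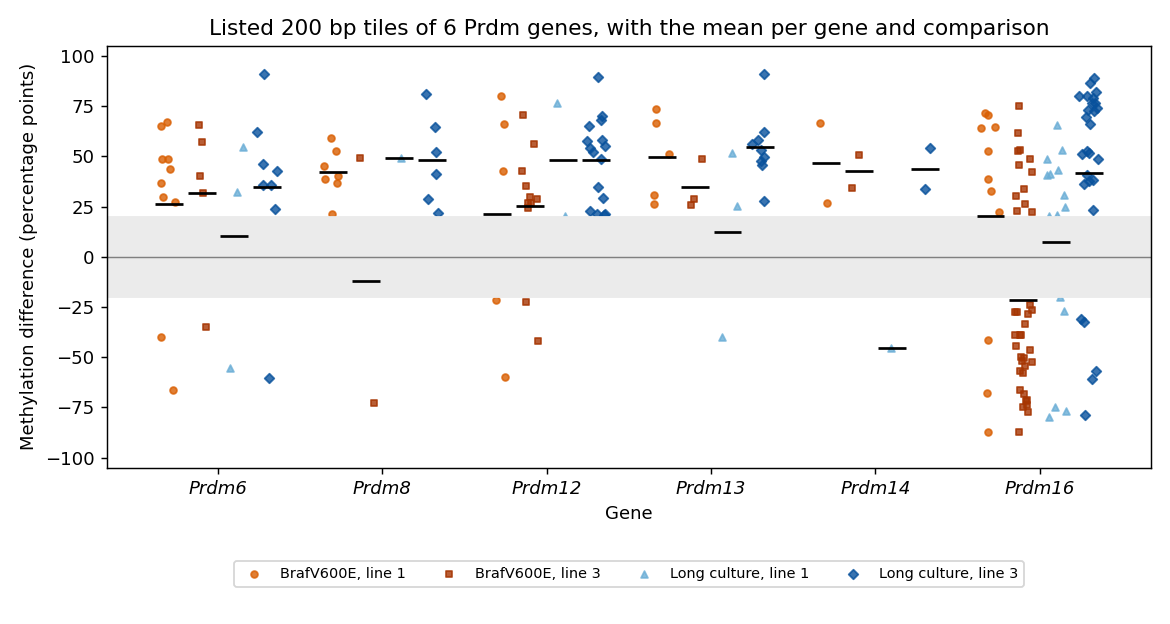
Methylation difference (percentage points, y axis) of every listed tile of the 6 genes (x axis), with a point per tile, a colour and marker per comparison and line, and a black bar for the mean over tiles. The grey band marks differences under 20 points, which the tables do not list; only Prdm16 in line 3 with BrafV600E shows a majority of lost tiles among the gene and table pairs with more than 2 tiles.

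Prdm16 (gene ID 70673, chromosome 4, 154316122 to 154637360, minus strand) had different directions at its start and along its body in some tables. Of its 62 distinct tiles, 14 lay within 2 kb of the annotated start at position 154636873, and these 14 adjoin each other over 2800 bp, from 154635201 to 154638000. After long culture every listed tile there had gained, 10 of 10 in line 1 and 14 of 14 in line 3. Under BrafV600E the lines differed: 9 of 9 listed tiles had gained in line 3, and the 1 listed tile of line 1 had lost. For comparison, among all listed tiles within 2 kb of any annotated start, the share that gained after long culture was 59.4% in line 1 and 86.9% in line 3, and with BrafV600E 77.2% in line 1 and 61.3% in line 3.

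After long culture in line 3, the 14 tiles at the Prdm16 start ranged from 23.1 to 86.7 points, with a median of 72.7. Their mean was 66.7 ± 17.3 (SD over tiles), from the authors' deposited table. They form 1 unbroken run. Of 10407 runs of adjoining gained tiles in that table, 4 were at least as long and 2 were longer. In line 1 the 10 listed tiles ranged from 20.3 to 65.4 points, with a median of 41.0 and a mean of 38.8 ± 14.8 (from the authors' deposited table). All 10 were among the 14 of line 3, and each gained more in line 3 than in line 1. The tile at 154637601, upstream of the start, had the smallest q-value in line 1 (9.97e-35, gain of 40.6 points) and in line 3 (4.85e-225, gain of 74.0 points) in the authors' deposited tables.

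Both tiles that overlap the printed Prdm16 promoter were listed after long culture in line 3, where they gained 72.5 and 78.9 points. The upstream one was also listed in line 1, with a gain of 24.9 points (authors' deposited tables). With BrafV600E in line 3 they gained 74.9 and 53.1 points in the authors' deposited table. The promoter of this gene is therefore within the stretch that gained in line 3 in both comparisons. The 9 tiles of that BrafV600E table ranged from 22.3 to 74.9 points, with a median of 42.2 and a mean of 43.7 ± 18.2. All 9 were also listed as gains after long culture in the same line; they are 64.3% of the 14. These comparisons share no library, though both come from line 3. The exception is the tile at 154637201, centred 0.428 kb before the start. With BrafV600E in line 1 its difference was -67.8 points (q = 0.000585), and it gained 65.4 and 86.7 points after long culture (authors' deposited tables, line 1 first).

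**Figure D3:**
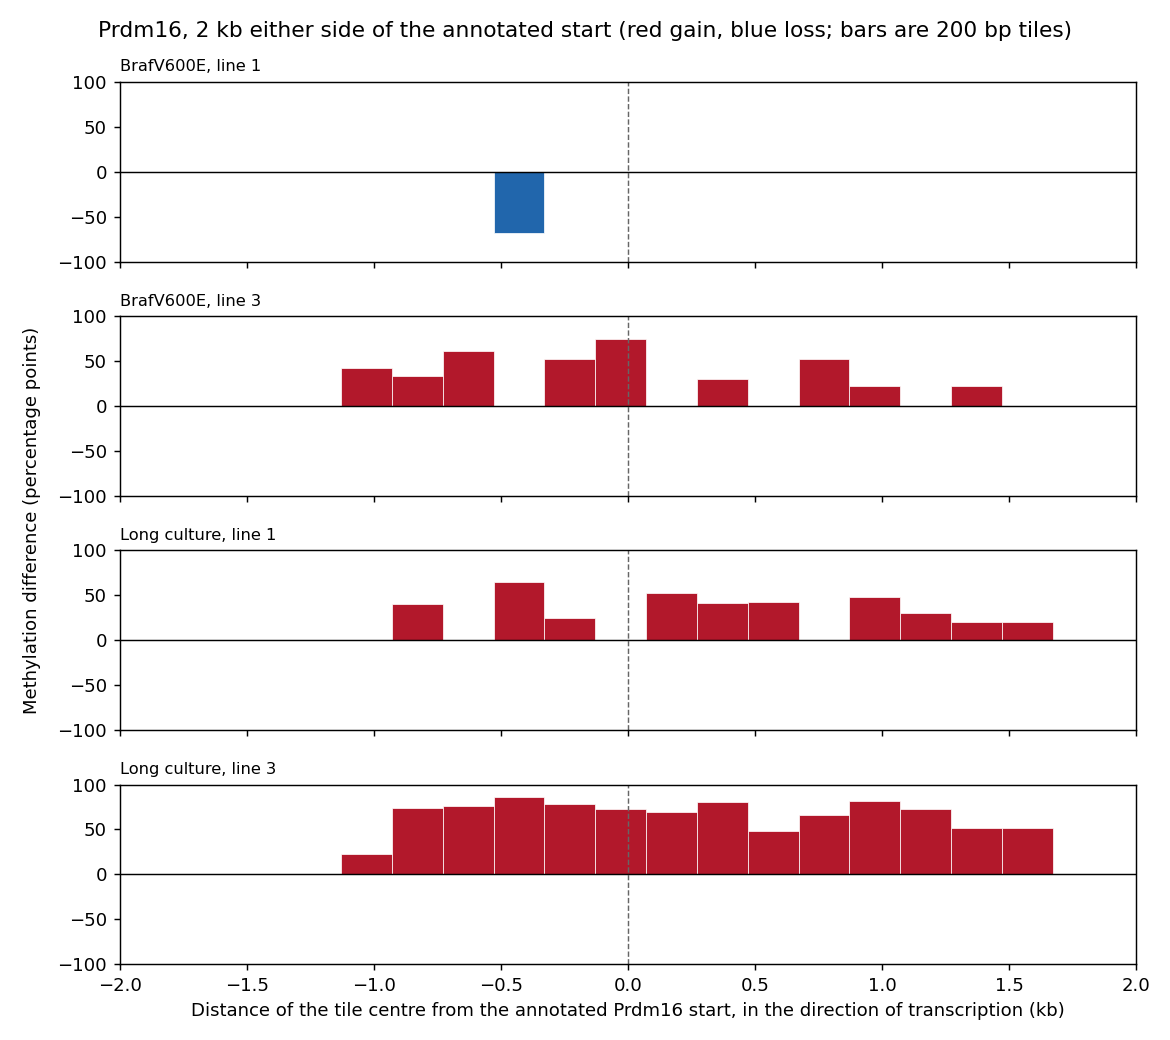
Methylation difference (percentage points, y axis) of listed tiles within 2 kb of the annotated Prdm16 start (x axis, kb in the direction of transcription), 1 panel per comparison and line, red for gains and blue for losses. Long culture in line 3 shows 14 adjoining gains, long culture in line 1 shows 10, BrafV600E in line 3 shows 9, and BrafV600E in line 1 shows 1 loss.

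The stretch is shared with other transcripts. The lncRNA gene 5930403L14Rik overlaps 6 of the 14 tiles on the downstream side, and Prdm16os, a lncRNA that starts upstream of Prdm16, overlaps 3 on the other side. A gain there cannot be assigned to 1 gene. Exons and introns were not used here, so tiles are placed by distance from the start alone.

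Along the rest of Prdm16, losses were common and the lines did not share them. With BrafV600E in line 3, 26 of 29 listed tiles away from the start had lost, with a mean of -51.6 over the losses and a largest of -87.5, in the authors' deposited table. They run from 6.57 kb to 315 kb into the gene. Only 3 tiles there had gained, 10.3%, where 34.3% of all listed tiles farther than 2 kb from every annotated start had gained. In line 1 the same comparison listed 8 gains and 2 losses, 80% gained against 62.9% of such tiles in that table. The gains ranged from 22.4 to 71.4 points and the losses were -41.2 and -87.5 points in the authors' deposited table. Both lines with BrafV600E listed 3 body tiles: the one at 154365801 gained 64.5 and 48.7 points, while those at 154352401 (33.0 and -46.4 points) and 154465001 (22.4 and -72 points) gained in line 1 and lost in line 3, in the authors' deposited tables.

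After long culture, the Prdm16 body listed 5 tiles in line 1, and all 5 were losses, the largest -80 points in the authors' deposited table, so that 0 of 5 gained against 31.4% of all listed tiles far from a start. In line 3 it listed 8 gains, from 36.3 to 88.9 points, and 5 losses, from -30.9 to -78.9 points, or 61.5% gained against 63.8%. None of the 13 body tiles of line 3 was listed in line 1. Gains at the start thus stood beside losses in the body with BrafV600E in line 3 and after long culture in line 1. For BrafV600E in line 1 the order was the other way round, on 1 start tile, and after long culture in line 3 the body was mixed.

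A few body tiles of Prdm16 were listed in both comparisons. The tile at 154441601 had differences of -87.5 points with BrafV600E and -75 points after long culture in line 1. The tile at 154321801, at the far end of the gene, had -58.0 points with BrafV600E in line 3 and -80 points after long culture in line 1. In line 3, 4 body tiles were listed in both: those at 154422801 (-39.1 and -30.9 points) and 154500201 (-52 and -32.4 points) lost in both, and those at 154501001 (-27.6 and 38.1 points) and 154528801 (-27.7 and 37.5 points) lost with BrafV600E and gained after long culture, in the authors' deposited tables. The body therefore had no direction common to both comparisons, whereas the start did in line 3.

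**Figure D4:**
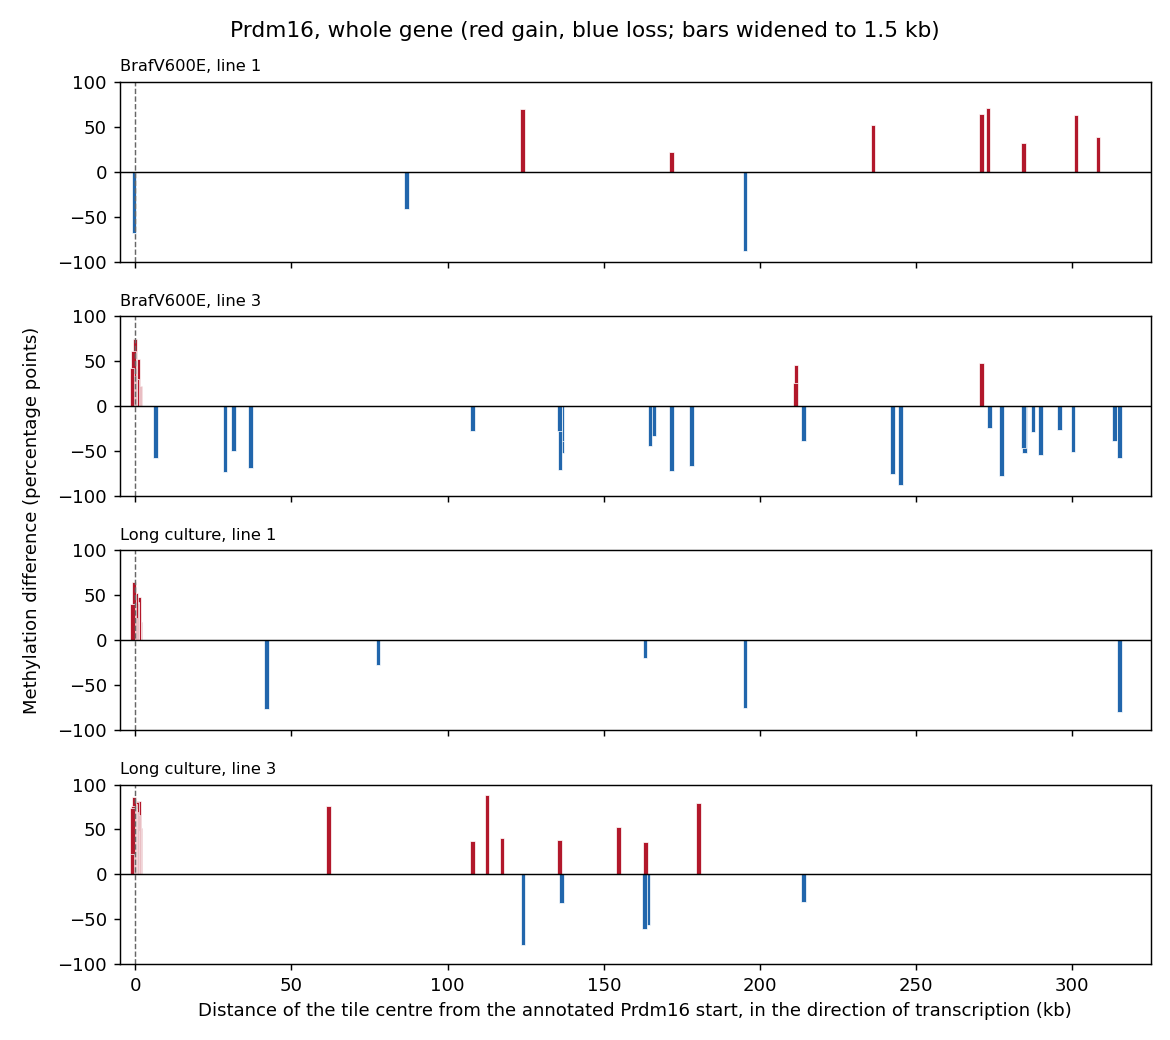
Methylation difference (percentage points, y axis) of every listed tile of Prdm16 by distance from the annotated start (x axis, kb in the direction of transcription), 1 panel per comparison and line, red for gains and blue for losses, with bars drawn wider than the tiles. Gains cluster at the start in 3 of 4 panels, while BrafV600E in line 3 shows 26 losses along the body.

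Prdm12 (gene ID 381359, chromosome 2, 31635026 to 31655795, plus strand) carried most of its 24 tiles within 5 kb of its annotated start at position 31640037, on either side. After long culture in line 3 all 16 listed tiles had gained, from 20.9 to 89.5 points with a median of 53.1, in the authors' deposited table. Of these 10 adjoin over 2000 bp inside the gene, from 31636001 to 31638000, a length that 17 of 10407 runs in that table reached. In line 1 it listed 2 tiles, with gains of 20.1 points, just inside the limit of 20, and 76.7 points in the authors' deposited table. The tile of 76.7 points, at 31642001, was also listed in line 3, at 52.3 points.

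With BrafV600E, Prdm12 listed 3 gains and 2 losses in line 1 and 9 gains and 2 losses in line 3. The 3 gained tiles of line 1, at 80, 66.2 and 42.9 points, were all gained in line 3 too, by 42.5, 28.9 and 24.5 points (authors' deposited tables). They lie between 3.54 kb and 4.74 kb before the annotated start, yet inside the gene span. The span begins at 31635026, upstream of that start, and the tile centres lie 275, 475 and 1475 bp into it. At the tile that covers the annotated start itself, 31640001, the comparisons of line 3 went opposite ways: a loss of -42.1 points with BrafV600E and a gain of 21.4 points after long culture in the authors' deposited tables. The neighbouring promoter tile at 31639801 gained 89.5 points after long culture in line 3 and was not listed elsewhere.

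Prdm13 (gene ID 230025, chromosome 4, 21675865 to 21685963, minus strand) had its 11 tiles around its start and between 4.66 kb and 7.26 kb into the gene. With BrafV600E all 5 listed tiles of line 1 had gained, at 30.6, 66.8, 73.6, 51.2 and 26.3 points, and all 3 of line 3, at 25.9, 29.0 and 48.7 points, as the authors' deposited tables list them. The tiles at 21679401 and 21687601 were gained in both lines. After long culture all 9 listed tiles of line 3 had gained, from 28 to 91.1 points with a median of 53.1, in the authors' deposited table. Of these 6 adjoin over 1200 bp, from 21678601 to 21679800, inside the gene.

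In line 1 after long culture, Prdm13 listed 2 gains inside the gene, at 25.3 and 51.7 points, both at tiles that also gained in line 3, in the authors' deposited tables. The third tile, at 21685801, covers the annotated start and the proximal end of the printed promoter. It had lost in that table, with a difference of -40.0 points, and gained 47.7 points after long culture in line 3 and 51.2 points with BrafV600E in line 1 in the authors' deposited tables. The start tile of Prdm13 thus had opposite signs in the lines after long culture, and in the 2 comparisons of line 1.

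Prdm8 (gene ID 77630, chromosome 5, 98167203 to 98187454, plus strand) had 9 of its 10 tiles after the annotated start at position 98180869, and the other, at 98166201, lies in the 2 kb added before the gene span. That start lies inside the span, which begins at 98167203. With BrafV600E in line 1 all 7 listed tiles had gained, from 21.4 to 59.2 points with a median of 40.4, and 4 of these adjoin from 98185601 to 98186400, in the authors' deposited table. Line 3 listed 2 of these 7 tiles, the one at 98186001 with a gain of 49 points and the one at 98183001 with a difference of -72.9 points, in the authors' deposited table. The latter had gained 40.4 points in line 1 and gained 81.3 points after long culture in line 3. Long culture gave 6 gains in line 3, from 22.0 to 81.3 points, and 1 in line 1, of 49.3 points at 98181401, a tile that gained 52.1 points in line 3, in the authors' deposited tables. The lncRNA gene A730035I17Rik overlaps 3 of the 10 Prdm8 tiles, including 98183001.

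**Figure D5:**
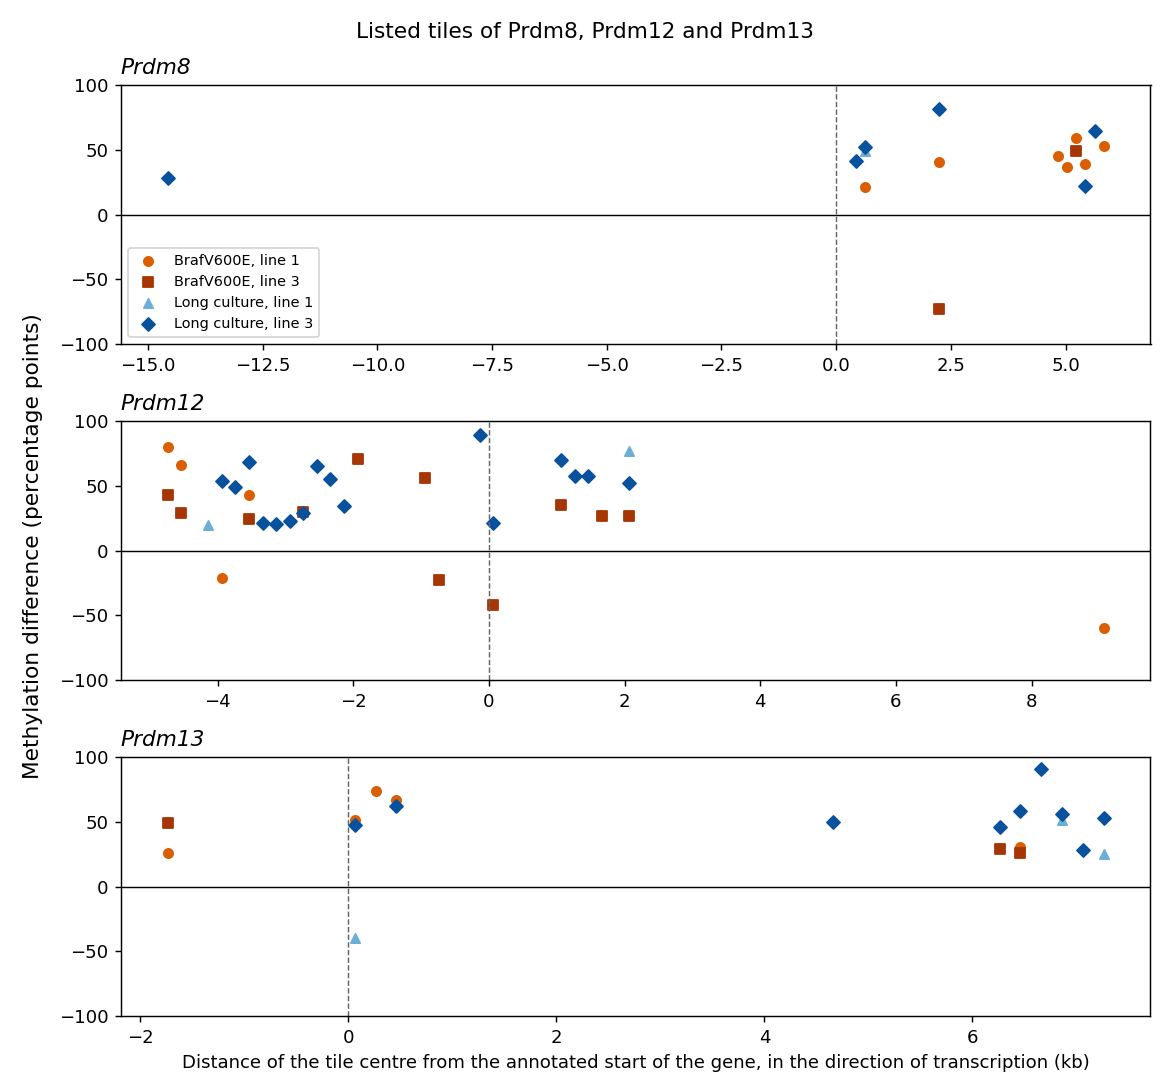
Methylation difference (percentage points, y axis) of listed tiles of Prdm8, Prdm12 and Prdm13 (1 panel each) by distance of the tile centre from the annotated start (x axis, kb in the direction of transcription), with colour and marker giving the comparison and line. Long culture in line 3 lies above 0 at every listed tile of the 3 genes, 6, 16 and 9 tiles.

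Prdm14 (gene ID 383491, chromosome 1, 13113428 to 13127163) had the fewest tiles, 6, all in the last 2 kb of the gene span or just beyond its higher-coordinate end. BrafV600E gave gains of 26.6 and 66.7 points in line 1 and of 50.6 and 34.4 points in line 3, at different tiles, in the authors' deposited tables. After long culture line 3 gained 33.5 and 53.9 points, and line 1 listed 1 tile, at 13128201, with a difference of -45.5 points, in the authors' deposited tables. That tile gained 34.4 points with BrafV600E in line 3. With at most 2 tiles per table, Prdm14 gives a direction for single tiles and little more.

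Prdm6 (gene ID 225518, chromosome 18, 53463955 to 53575904) had 16 tiles and gained mainly near the lower-coordinate end of its span, except after long culture in line 1. With BrafV600E in line 1, 6 adjoining tiles from 53463801 to 53465000 gained between 27.3 and 67.1 points, a run length that 30 of 8188 runs in that table reached, in the authors' deposited table. Line 3 listed 3 of these tiles, with gains of 65.4, 57.3 and 40.0 points. After long culture line 3 had a run of 4 gains from 53464801 to 53465600, of 46.7 points on average, in the authors' deposited table. In line 1 long culture gave 2 gains, of 54.5 points at 53462201, just before the lower-coordinate end, and of 32.0 points at 53552401, far inside the gene. With BrafV600E in line 1 these tiles had differences of 65.0 and -40 points. At 53464601, inside the run that gained with BrafV600E, long culture in line 1 gave a difference of -55.6 points (authors' deposited tables). Farther into the gene, the tile at 53538601 lost with BrafV600E in line 1 (-66.1 points) and after long culture in line 3 (-60.3 points) in the authors' deposited tables.

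Most tiles listed in both lines of a comparison moved in 1 direction. After long culture 15 tiles of the 6 genes were listed in both lines, 60% of the 25 of line 1 and 22.1% of the 68 of line 3, and 14 of them gained in both; Prdm16 gave 10 of these. Over all tiles of the tables that both lines list, 68.5% shared a direction. With BrafV600E 13 tiles were listed in both lines, 32.5% of the 40 of line 1 and 21.3% of the 61 of line 3. Of these, 10 gained in both lines, 0 lost in both and 3 gained in line 1 and lost in line 3, so 76.9% agreed in direction, where 73.9% did over all tiles. The difference between the comparisons was not tested.

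Within a line, BrafV600E and long culture could be compared tile by tile. In line 3, 22 tiles of the 6 genes were listed in both comparisons, 36.1% of the BrafV600E tiles and 32.4% of the long culture tiles. Of these 16 gained in both, 2 lost in both and 4 lost with BrafV600E and gained after long culture, so 81.8% had 1 direction, against 51.9% over all tiles of that line. The 9 start tiles of Prdm16 made up most of the 16. In line 1 the comparisons listed 7 tiles in common, of which 2 gained in both, 1 lost in both and 4 had opposite directions, so 42.9% had 1 direction against 48.9% over all tiles. No tile of the 6 genes was listed in all 4 tables, and 6 tiles of Prdm16, all within 2 kb of its start, 2 each of Prdm8, Prdm12 and Prdm13 and 1 of Prdm6 were listed in 3.

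Most of the other 9 Prdm genes had few listed tiles, or none. With BrafV600E 4 of them had only gains, 1 only losses and 4 no listed tile in line 1, and in line 3 1 had only gains, 1 only losses, 3 both and 4 none. After long culture the counts were 1 with only gains, 2 with only losses, 1 with both and 5 with none in line 1, and 4, 0, 1 and 4 in line 3. A gained tile was present at 4 and 4 of the 9 (44.4% and 44.4%) with BrafV600E and at 2 and 5 (22.2% and 55.6%) after long culture, beside 17.8%, 20.9%, 8.55% and 20.3% of all protein-coding genes. Their tiles were 9 gained and 4 lost with BrafV600E in line 1, 20 and 6 in line 3, and 2 and 4, then 11 and 2, after long culture. The gained shares were 69.2%, 76.9%, 33.3% and 84.6%, beside 67.5%, 40.4%, 40.9% and 71.9% of all listed tiles. Prdm1, which encodes Blimp1 and marks immature gut epithelium, had 4 losses with BrafV600E in line 1, averaging -67.2 points, and 3 gains and 1 loss in line 3 in the authors' deposited tables. Prdm11 had 4 gains in line 1 and 12 gains with 2 losses in line 3 with BrafV600E, the latter more tiles than any of the 6 genes except Prdm16 had there. Mecom, the closest relative of Prdm16, had 2 gains in line 1 and 3 gains with 2 losses in line 3 with BrafV600E, and 2 gains after long culture in line 3.

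Partner and target genes, and genes of the same lineages, were counted in 4 lists chosen with earlier results in view, each over the gene span with 2 kb on either side. Among 12 genes of sensory, spinal and retinal neurons around Prdm8, Prdm12 and Prdm13, long culture gave 29 gained and 8 lost tiles in line 1 and 107 gained and 5 lost in line 3. BrafV600E gave 50 and 3 in line 1 and 29 and 32 in line 3. The gained shares were 78.4% and 95.5% after long culture, beside 40.9% and 71.9% of all listed tiles, and 94.3% and 47.5% with BrafV600E, beside 67.5% and 40.4%, so the value with BrafV600E in line 3 is near that of its whole table. By genes, 9 had only gains and 0 only losses with BrafV600E in line 1, and 2 and 3 in line 3. After long culture the counts were 4 and 0 in line 1, and 9 and 0 in line 3. A gained tile was listed at 91.7% and 75% of the 12 genes with BrafV600E, beside 17.8% and 20.9% of all protein-coding genes. After long culture these shares were 83.3% and 100%, beside 8.55% and 20.3% (line 1 first). Ptf1a, the partner of Prdm13, gained a mean of 38.2 and 57.4 points with BrafV600E, over 2 tiles in each line (authors' deposited tables, line 1 first). Bhlhe22, the partner of Prdm8, gained 21.7 points at 1 tile of line 1, near the limit of 20, in the same tables. In line 3 it gained a mean of 41.6 points over 2 tiles. After long culture the neuronal selector genes Lbx1 (40.6 and 46.3 points) and Tlx3 (33.4 and 60.2 points) gained in both lines of the authors' deposited tables.

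Among 8 pluripotency and germ cell genes around Prdm14, long culture gave 3 gained and 0 lost tiles in line 1 and 27 and 1 in line 3, and BrafV600E gave 12 and 3 in line 1 and 18 and 5 in line 3. The gained shares were 100% and 96.4%, then 80% and 78.3%, beside 40.9% and 71.9%, then 67.5% and 40.4%, of all listed tiles. After long culture 3 genes, Sox2, Tfap2c and Klf2, held all 3 gains of line 1, 1 each, and most of those of line 3, with 9, 10 and 5 tiles. Sox2, a pluripotency factor, gained 37.6 and 31.8 points with BrafV600E and 55.9 and 58.7 points after long culture, and Tfap2c, a germ cell factor, 51.0 and 55.3 points after long culture, as means over tiles (authors' deposited tables, line 1 first). By genes, 3 of the 8 had only gains and 0 only losses with BrafV600E in line 1, and 2 and 1 in line 3. After long culture it was 3 and 0 in line 1 and 4 and 1 in line 3. A gained tile was listed at 50% and 50% of the 8 genes with BrafV600E, beside 17.8% and 20.9% of all protein-coding genes. After long culture these shares were 37.5% and 50%, beside 8.55% and 20.3% (line 1 first). Klf2, a factor of naive pluripotency, gained 27.9 and 48.8 points after long culture in the same tables.

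Among 12 partners of Prdm16 and brown fat genes the tiles were 12 gained and 6 lost with BrafV600E in line 1, 15 and 11 in line 3, and 3 and 4, then 16 and 6, after long culture. Genes with only gains and only losses numbered 1 and 2, then 3 and 3, with BrafV600E, line 1 first. After long culture they numbered 0 and 2, then 2 and 2. A gained tile was listed at 25% and 50% of the 12 genes with BrafV600E, beside 17.8% and 20.9% of all protein-coding genes. After long culture these shares were 16.7% and 41.7%, beside 8.55% and 20.3%. Of the tiles 66.7% and 57.7% had gained with BrafV600E and 42.9% and 72.7% after long culture, beside 67.5%, 40.4%, 40.9% and 71.9% of all listed tiles. By its share of gained tiles the list was therefore near the whole table in 3 of 4 tables. Zfp516, a brown fat regulator that binds Prdm16, lost at 1 tile per table in all 4, by -66.7 and -72.1 points with BrafV600E and -56.25 and -24.0 points after long culture in the authors' deposited tables. Ehmt1, the histone methyltransferase partner of Prdm16, gained 37.8 and 27.4 points with BrafV600E, and the corepressor gene Ctbp1 lost, at -36.9 and -24.1 points, each at a single tile of each line (authors' deposited tables). Among 7 smooth muscle genes around Prdm6, 1 tile gained and 0 lost with BrafV600E in line 1, 9 and 3 in line 3, and 7 and 1, then 15 and 1, after long culture. Genes with only gains and only losses were 1 and 0, then 2 and 1, with BrafV600E. After long culture they were 2 and 1, then 4 and 0. A gained tile was listed at 14.3% and 42.9% of the 7 genes with BrafV600E, beside 17.8% and 20.9% of all protein-coding genes. After long culture these shares were 28.6% and 71.4%, beside 8.55% and 20.3%. The gained shares of tiles were 100% (1 tile), 75%, 87.5% and 93.75%, beside 67.5%, 40.4%, 40.9% and 71.9% of all listed tiles. Most of these gains lie in 1 gene, Tfap2b, which had 1 and 7 tiles with BrafV600E and 6 and 11 after long culture, all gained. Tfap2b, a ductus arteriosus factor, gained 27.3 and 49.2 points with BrafV600E and 41.9 and 46.9 points after long culture in the authors' deposited tables.

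The genes whose balance of gains and losses over the 4 tables was most like that of Prdm16 were Pax2, Lmx1b and Cacna2d2. Likeness was the Euclidean distance between the percentages of tiles that gained, over 92 other genes with at least 5 tiles in each of the 4 tables. Prdm16 had 72.7% and 31.6% gained with BrafV600E and 66.7% and 81.5% after long culture in lines 1 and 3. Pax2, a paired-box factor of kidney and spinal cord, had 84.6%, 28.6%, 75% and 88.9% in the same order, at a distance of 16.6 points. Lmx1b, a homeobox factor of limb and midbrain, lay at 19.4 points and Cacna2d2, a calcium channel subunit gene, at 19.9 points. The 4 tables are few, and the measure takes no account of where in a gene the tiles lie.

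Genes that mark cell types were counted in the same way. Of 6 colon epithelium markers (Epcam, Cdh1, Krt8, Krt20, Vil1 and Cdx2), 1 had gained tiles only with BrafV600E in line 1 and 3 in line 3, with 0 losses. After long culture 1 had a loss only in line 1, and in line 3 1 had losses only and 1 both. Of 4 mesenchyme and immune markers (Vim, Col1a1, Pdgfra and Ptprc), 1 had both kinds with BrafV600E in line 1, and in line 3 1 had gains only, 1 losses only and 1 both. After long culture 2 had gains only and 1 a loss only in line 1, and 3 had gains only in line 3. A gained tile was thus listed at 1, 3, 0 and 1 of the epithelial and at 1, 2, 2 and 3 of the other markers, beside 17.8%, 20.9%, 8.55% and 20.3% of all protein-coding genes. The markers that moved 1 way in both lines, picked out after their values were seen, were Epcam, with mean gains of 65.0 and 55.6 points with BrafV600E, and Pdgfra (51.9 and 75 points) and Vim (33.85 and 41.1 points) after long culture, per the authors' deposited tables. Methylation at these genes gives no level of expression, and their part in the results at the Prdm genes was not tested.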

How the data were processed

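The 8 tables were deposited by the authors. Per the file headers, they give for each listed 200 bp tile the methylation difference (percentage points) with its p-value and q-value. The submitters' processing notes name methylKit 1.7.4, Bismark 0.14.3, Trim Galore 0.4.4 and FastQC 0.11.7, and the builds mm10 and GRCm38. Single-end reads of 50 bp were sequenced with about 10% of phiX added, per the labels' protocols. No coverage minimum is given in the sources used here. A read filter or a difference in depth decides which tiles could be listed, and depth per library is unknown.

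Tiles were joined to RefSeq gene spans of GRCm38.p6 extended by 2 kb, and the joining was tested on simulated data. Annotated starts and sequences came from a RefSeq promoter table. Counts, means, SDs over tiles and shares were computed with Python 3.11.15, pandas 2.3.3 and numpy 2.4.6; intervals used scipy 1.17.1 and figures matplotlib 3.10.9. No test of a condition was made, since each table compares 1 library with 1 library and the replicates are 2 lines. Runs are adjoining gained tiles. The members, the gene lists and the rules were chosen with earlier results of these data known; the rule named all members, all other Prdm genes, up to 3 genes a list listed in 1 direction in both lines, and the 3 genes most like Prdm16. Some results for genes named by this rule are not reported here. Which other Prdm genes and single tiles are described was chosen after their values were seen. Alternatives were gene spans with 0, 1 or 10 kb, a difference of at least 40 points, q under 0.001, merging within 500 bp, medians, and leaving out a line or Prdm16. The 2 kb start zone and its 1 kb and 5 kb alternatives, and the merging of all tiles as a background, were chosen after seeing the data.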

Additional observations from a re-analysis of the deposited data

Results flagged for a closer look

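In 3 results the lines had opposite directions, with every listed tile of one line gained and every listed tile of the other lost; the difference between lines was not tested in any of them. After long culture, Prdm14 had a mean difference of -45.5 points in line 1, at 1 tile, and of 43.7 points in line 3, over 2 other tiles. The line 1 tile, at 13128201, lies beyond the gene span, which ends at 13127163. Its q-value in the authors' deposited table was 0.00938, near the limit of 0.01. With the gene span alone, 1 kb either side or q under 0.001 it drops out, and line 1 then has no value to set against line 3. Within 2 kb of the Prdm13 start, long culture gave -40.0 points in line 1, at 1 tile, and a mean of 55.0 points in line 3 over 2 tiles, of which 1 is the same tile. Within 2 kb of the Prdm16 start, BrafV600E gave -67.8 points in line 1, at 1 tile, and a mean of 43.7 points in line 3 over 9 tiles, none of them the same tile. In each case line 1 rests on 1 tile of unknown depth. The line 1 BrafV600E library and the line 3 long culture library, each in 1 or 2 of these results, carry a label that conflicts with their title.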

How the results depend on the processing

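The share of listed tiles of the 6 genes that gained was 63.4% with BrafV600E and 84.9% after long culture over both lines. Of the alternatives for these shares, pooled and by line, 36 stayed within the exact 95% interval and 10 did not. With 1 line left out it ranged from 50.8% to 82.5% with BrafV600E and from 68% to 91.2% after long culture. Both shares thus depend on the line. Without Prdm16 it was 84.6% with BrafV600E (82.6% in line 3) and 92.2% after long culture (97.6% in line 3). With q under 0.001 it was 94.6% after long culture (87.5% in line 1), and with tiles within 500 bp merged 70.5%. Merging also gave 46.7% after long culture in line 1 and 39.0% with BrafV600E in line 3. Over all tiles merged alike these shares were 35.6% and 35.9%. The merged shares of these single lines count among the 36 within their intervals, though gains were no longer a majority. With BrafV600E in line 1, 10 kb either side again gave 33 of 40 tiles, so that share could not move. Intervals on few tiles are also wide, 46.5 to 85.1 for long culture in line 1. The 36 therefore do not measure stability. Of the alternatives for the mean difference of a gene in a table, 1 moved by more than 1 SD over tiles, 5 changed sign and 134 did neither. Some alternatives kept the same tiles, as for Prdm12 with BrafV600E in line 1, where every flank gave 21.5 points. Such means could not move, and a mean over 1 tile has no SD. The 134 therefore do not measure stability. Prdm8 with BrafV600E in line 3 changed from -11.9 to 21.1 points with 10 kb either side. Prdm6 after long culture in line 1 changed from 10.3 to -11.8 points with the gene span alone or 1 kb either side, and to -0.54 points with at least 40 points or q under 0.001. Both means rest on 2 or 3 tiles. For the Prdm16 start, a zone of 1 kb, added after seeing the data, gave means of 47.0 points with BrafV600E in line 3 and 45.3 and 73.5 points after long culture, each within 1 SD over tiles. A zone of 5 kb added no tile, and BrafV600E in line 1 has 1 tile under each, so these say nothing of stability. No paired analysis was possible because each deposited value is already the difference within 1 line, and levels of single libraries were not used, so no fit with and without a line term can be set side by side. Depth is unknown, so tiles of few reads cannot be set apart.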
